A study of Mus musculus with 4 samples.

Results

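The genes described here carry the signal of leukaemia inhibitory factor (LIF) from the cell surface to the nucleus of mouse embryonic stem (mES) cells. They are the receptor genes Lifr, Il6st and Osmr, the kinase genes Jak1 and Jak2, the transcription factor gene Stat3, and the STAT3 target genes Socs3, Pim1, Pim3 and Bcl3. Every probe set whose only gene symbol in the platform annotation is one of these 10 was taken, which gave 28 of the 45037 probe sets measured. The receptors and kinases had 15 of them, Stat3 had 4 and the target genes had 9. E14 cells, a mES cell line, were transfected with an shRNA plasmid against Zfp322a (Zfp322a RNAi, 2 arrays). They were compared with E14 cells given a pSuper.puro control plasmid (control RNAi, 2 arrays). For the control, the study's figures name the empty vector, while its array methods speak of a control shRNA. Both groups were grown in serum with LIF and were selected with puromycin for 3 days, as the labels state. The study's methods give the same time for shRNA cells in general and, where the arrays are described, a longer one. The study used more than 1 shRNA, and the sources used here do not say which shRNA the array samples received. Each array was hybridised with RNA of a whole culture, so that less RNA per cell and fewer cells expressing a gene cannot be told apart.

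LIF binds the receptor chain encoded by Lifr, which then pairs with gp130, the product of Il6st. JAK kinases that sit on the tails of the receptor chains phosphorylate them and the STAT3 that docks there. STAT3 dimers enter the nucleus and switch on target genes, among them Socs3, whose protein binds gp130 and the JAKs and turns the signal down. This pathway is known for sustaining the self-renewal of mES cells in serum. Phosphorylation of STAT3, by which its activity is usually read, is not measured by RNA arrays.

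Values are log2 RMA values, and a change is the mean of the Zfp322a RNAi arrays minus the mean of the control RNAi arrays, with the standard error (SE) of limma after the ± sign. A probe set passed the test where its p, adjusted by Benjamini-Hochberg over all 45037 probe sets, was under 0.05, which held for 20.1% of all probe sets (10.6% higher and 9.47% lower in Zfp322a RNAi). The arrays of a group correlated at 0.998, and those of different groups at 0.989 to 0.990 (Pearson's r over all probe sets). Zfp322a itself read 8.82 and 8.89 in control RNAi and 7.08 and 6.89 in Zfp322a RNAi with probe set 1452374_at (-1.87 ± 0.09, adjusted p = 9.35e-04 with limma). Its other probe set also fell (-1.465 ± 0.14, adjusted p = 0.00220 with limma). The mES cell markers Pou5f1, Nanog and Sox2 lay between 12.5 and 12.93 on all 4 arrays. Of the 12 probe sets on the list of such markers, 4 were lower (33.3%, against 9.47% of all probe sets). These were 1416899_at and 1443786_at of Utf1 (-0.65 ± 0.08 and -0.935 ± 0.09), 1450989_at of Tdgf1 (-0.59 ± 0.08) and 1436926_at of Esrrb (-0.41 ± 0.07). Of 22 probe sets of 8 endoderm markers, 7 were higher (31.8%, against 10.6% of all probe sets) and 0 lower. The summed level of all 22 went from 9.68 and 9.70 to 10.2 and 10.2 on the log2 scale. Of 14 probe sets of 8 fibroblast markers, 2 were lower (14.3%, against 9.47% of all probe sets) and 0 higher. In control RNAi, 3 of these 8 genes lay below the lower quartile of all levels. The part of either cell type in the results below was not tested.

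After depletion of Zfp322a the 4 STAT3 target genes described here fell together. The receptor, kinase and Stat3 probe sets went both ways or did not pass the test. Of the 9 target probe sets, 8 passed the test and all 8 were lower, with at least 1 for each of Socs3, Pim1, Pim3 and Bcl3. Of the 15 receptor and kinase probe sets, 1 was higher, 3 were lower and 11 did not pass. Their shares were 6.67% higher and 20.0% lower, against 10.6% and 9.47% of all probe sets. Lower calls were thus more frequent among them than among all probe sets, though they rest on 3 probe sets. Of the 4 Stat3 probe sets, 1 was higher and 3 did not pass. The median change was -0.635 over the target probe sets and -0.08 over those of receptors and kinases, beside -0.03 over all probe sets. All members together had 11 lower and 2 higher calls out of 28 (39.3% and 7.14%, against 9.47% and 10.6% of all probe sets). Another 18 genes reported as STAT3 targets went both ways. Of their 35 probe sets, 8 were lower and 7 higher (22.9% and 20.0%), as given below.

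**Figure D1:**
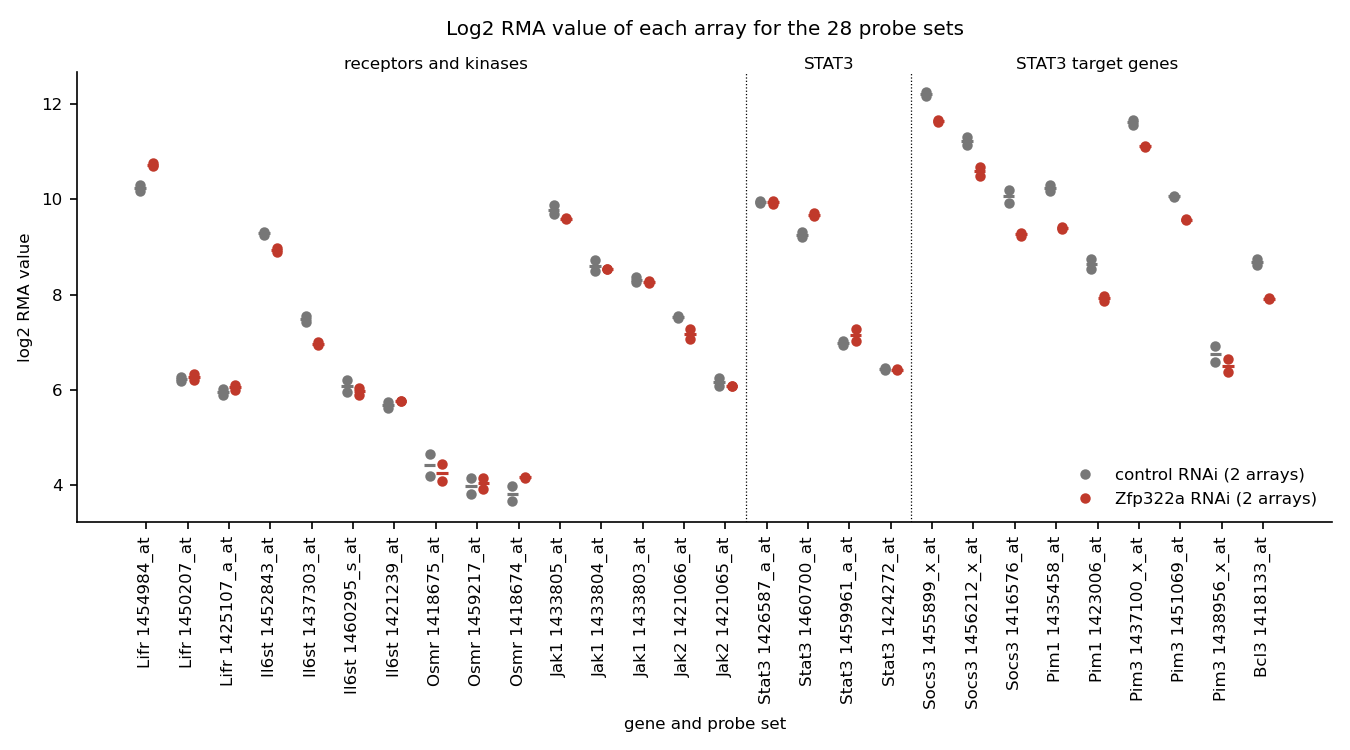
Log2 RMA value (y axis) of each of the 4 arrays for the 28 probe sets (x axis), with control RNAi in grey, Zfp322a RNAi in red and short lines at the group means. For 8 of the 9 probe sets of STAT3 target genes both red points lie below both grey points, and those of Osmr lie between 3.67 and 4.65.

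The receptor genes did not move as one. Lifr encodes the chain that binds LIF and several related cytokines. Its probe set 1454984_at read 10.29 and 10.18 in control RNAi and 10.75 and 10.70 in Zfp322a RNAi. Both Zfp322a RNAi arrays were above both control arrays, and the level rose 1.40-fold (0.49 ± 0.08, adjusted p = 0.0107 with limma). The other probe sets of Lifr were dimmer and did not follow. 1450207_at read 6.28 and 6.18 in control RNAi and 6.33 and 6.22 in Zfp322a RNAi, with a 95% confidence interval of the change from -0.16 to 0.25. 1425107_a_at changed by 0.095 ± 0.09 (interval -0.12 to 0.31). On these 2 probe sets the arrays of the groups overlapped.

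Il6st encodes gp130, the chain shared by the receptors of the interleukin-6 family. Its probe set 1452843_at read 9.25 and 9.32 in control RNAi and 8.90 and 8.98 in Zfp322a RNAi, which left 78.7% of the control level (-0.345 ± 0.08, adjusted p = 0.0309 with limma). The second brightest, 1437303_at, read 7.55 and 7.42 in control RNAi and 6.95 and 7.00 in Zfp322a RNAi and fell further, to 70.2% (-0.51 ± 0.08, adjusted p = 0.0103 with limma). On both, the Zfp322a RNAi arrays were the lower ones without overlap. The dimmest pair of Il6st probe sets did not pass, with 5.96 and 6.22 against 5.90 and 6.05 on 1460295_s_at (-0.115 ± 0.11) and 5.63 and 5.74 against 5.78 and 5.77 on 1421239_at (0.09 ± 0.08). In Zfp322a RNAi cells Lifr was thus measured higher and Il6st lower, each on its brightest probe set.

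Osmr, which pairs with gp130 to bind oncostatin M, was read by dim probe sets. Its 3 probe sets read 3.67 to 4.65 over the 4 arrays, and 10.5% to 20.8% of all probe sets were dimmer in control RNAi. None of the 3 passed the test. Their changes were -0.155 ± 0.18, 0.065 ± 0.14 and 0.345 ± 0.12, and the last, on 1418674_at, had an adjusted p of 0.0919 with limma. The interval of the first change ran from -0.59 to 0.28 and that of the last from 0.06 to 0.63.

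The kinase genes showed small differences. Jak1 encodes a kinase that gp130 depends on. Its brightest probe set, 1433805_at, read 9.69 and 9.87 in control RNAi and 9.58 and 9.60 in Zfp322a RNAi, and the change of -0.19 ± 0.09 did not pass (adjusted p = 0.210 with limma). The other Jak1 probe sets changed by -0.08 ± 0.10 and -0.05 ± 0.08. Over the 3, the interval of the change ran from -0.41 at the lowest to 0.16 at the highest. Jak2, which encodes a related kinase used by many cytokine receptors, read 7.56 and 7.51 in control RNAi and 7.08 and 7.28 in Zfp322a RNAi on 1421066_at. That probe set passed narrowly (-0.355 ± 0.09, adjusted p = 0.0473 with limma), and the call ended with arrays centred on their medians (0.0566) or with quantile normalization repeated (0.0506). The second Jak2 probe set, 1421065_at, changed by -0.085 ± 0.09 and did not pass.

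Stat3 encodes the transcription factor on which the receptor signal converges. Probe set 1426587_a_at read 9.93 and 9.97 in control RNAi and 9.91 and 9.96 in Zfp322a RNAi (-0.015 ± 0.08, interval -0.20 to 0.17). Probe set 1460700_at, the second brightest, read 9.20 and 9.31 in control RNAi and 9.64 and 9.71 in Zfp322a RNAi, without overlap, and rose 1.34-fold (0.42 ± 0.08, adjusted p = 0.0182 with limma). The dimmer 1459961_a_at (0.165 ± 0.11) and 1424272_at (-0.01 ± 0.08) did not pass. No Stat3 probe set was called lower.

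**Figure D2:**
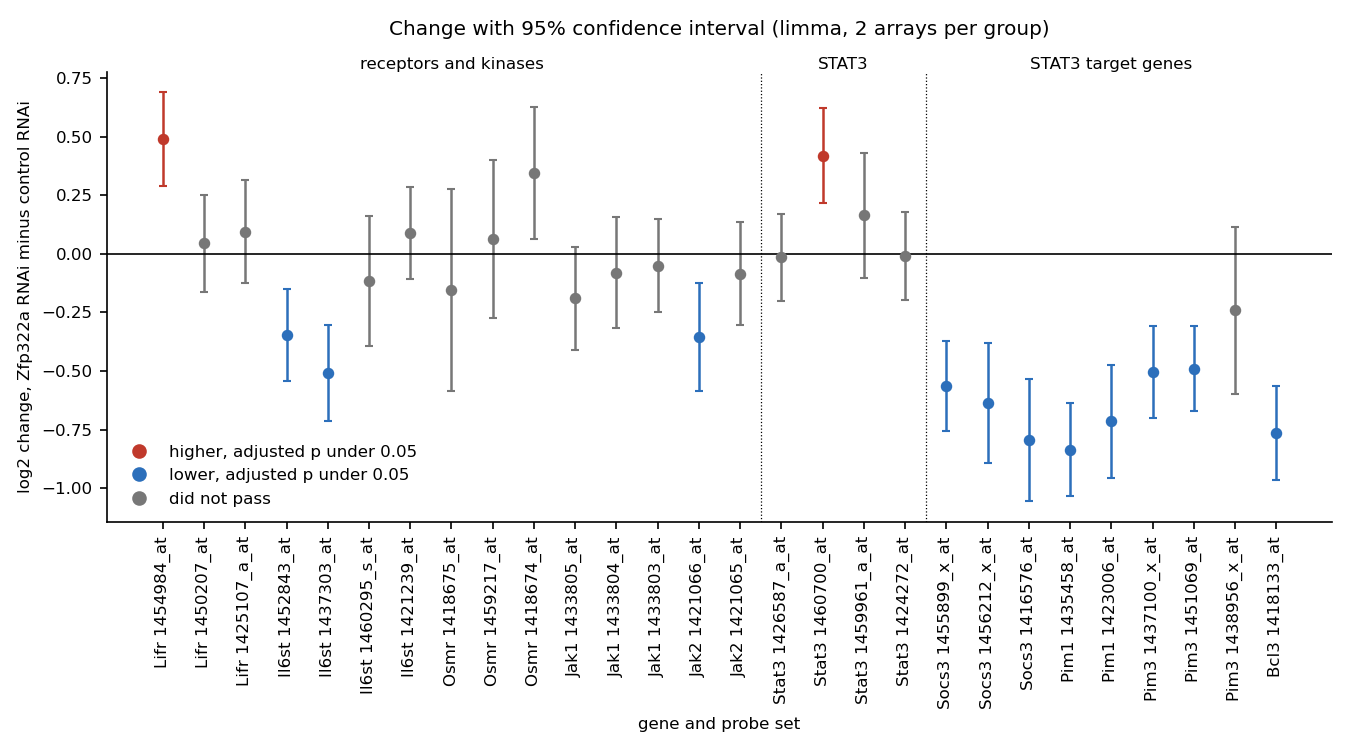
Log2 change, Zfp322a RNAi minus control RNAi (y axis), of the 28 probe sets (x axis), with bars for the 95% confidence interval from limma. Red and blue points passed an adjusted p of 0.05 as higher and lower, and the blue points of the target genes run from -0.49 to -0.835 while Lifr 1454984_at and Stat3 1460700_at lie at 0.49 and 0.42.

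The target genes were read by 9 probe sets, all with a negative change. Pim1, which encodes a serine/threonine kinase that promotes survival and growth, had the largest fall among the members. Its probe set 1435458_at read 10.18 and 10.29 in control RNAi and 9.38 and 9.42 in Zfp322a RNAi, which left 56.1% of the control level (-0.835 ± 0.08, adjusted p = 0.00234 with limma). 1423006_at read 8.54 and 8.74 in control RNAi and 7.87 and 7.98 in Zfp322a RNAi and left 60.9% (-0.715 ± 0.10). Falls at least as large as that of 1435458_at were seen in 0.726% of all probe sets.

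Socs3 encodes the feedback inhibitor of the pathway, and all 3 of its probe sets fell. 1416576_at read 9.93 and 10.19 in control RNAi and 9.23 and 9.30 in Zfp322a RNAi (-0.795 ± 0.11, adjusted p = 0.00546 with limma). 1456212_x_at read 11.31 and 11.13 in control RNAi and 10.68 and 10.49 in Zfp322a RNAi (-0.635 ± 0.11). The brightest, 1455899_x_at, went from 12.24 and 12.17 to 11.67 and 11.61 (-0.565 ± 0.08). No Zfp322a RNAi array reached a control array on any of the 3, and the level left was 57.6% to 67.6% of control. The ending _x_at marks probe sets with probes that can also match other transcripts, and the largest of these falls was on the probe set without it.

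Bcl3, a nuclear member of the IkB family that acts on NF-kB dimers, was read by 1 probe set. It gave 8.62 and 8.74 in control RNAi and 7.92 and 7.91 in Zfp322a RNAi, which left 58.8% of the control level (-0.765 ± 0.08, adjusted p = 0.00290 with limma). Pim3 encodes a kinase closely related to that of Pim1. Its probe set 1451069_at went from 10.05 and 10.07 to 9.58 and 9.56 (-0.49 ± 0.07, adjusted p = 0.00791 with limma). 1437100_x_at went from 11.56 and 11.67 to 11.10 and 11.12 (-0.505 ± 0.08), so that both left about the same share, 71.2% and 70.5%. The dimmest Pim3 probe set, 1438956_x_at, overlapped between the groups, at 6.92 and 6.58 against 6.65 and 6.37, and did not pass (-0.24 ± 0.15). The 8 target probe sets that passed had adjusted p from 0.00234 to 0.0104 with limma.

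Since the 4 target genes fell together, the stretches before their transcription starts are shown, as RefSeq places them in GRCm38.p6. Each is the 250 bases before the start (for Pim1 the more upstream of 2 listed starts), 5′ to 3′. Capitals mark matches to STAT-type motifs. These are TTCNNNGAA, which reads the same on both strands, and the looser TTCNNNNAA or TTNNNNGAA, which are each other's reverse complement and include every match of the first.
Socs3 (chr11:117969367-117969616, minus strand): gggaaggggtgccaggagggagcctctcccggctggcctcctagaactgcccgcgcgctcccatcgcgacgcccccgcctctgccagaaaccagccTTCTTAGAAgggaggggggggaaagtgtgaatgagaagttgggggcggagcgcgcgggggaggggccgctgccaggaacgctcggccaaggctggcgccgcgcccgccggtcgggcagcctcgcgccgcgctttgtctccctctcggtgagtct
Pim1 (chr17:29490535-29490784, plus strand): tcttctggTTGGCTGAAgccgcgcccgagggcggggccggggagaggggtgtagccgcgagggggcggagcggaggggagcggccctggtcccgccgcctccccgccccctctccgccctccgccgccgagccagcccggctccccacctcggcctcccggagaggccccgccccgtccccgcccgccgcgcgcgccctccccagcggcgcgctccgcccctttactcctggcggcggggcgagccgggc
Pim3 (chr15:88861944-88862193, plus strand): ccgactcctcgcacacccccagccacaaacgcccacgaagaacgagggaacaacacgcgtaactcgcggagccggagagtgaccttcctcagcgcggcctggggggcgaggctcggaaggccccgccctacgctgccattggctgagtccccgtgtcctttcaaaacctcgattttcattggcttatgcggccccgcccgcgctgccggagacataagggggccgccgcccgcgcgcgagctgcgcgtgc
Bcl3 (chr7:19822756-19823005, minus strand): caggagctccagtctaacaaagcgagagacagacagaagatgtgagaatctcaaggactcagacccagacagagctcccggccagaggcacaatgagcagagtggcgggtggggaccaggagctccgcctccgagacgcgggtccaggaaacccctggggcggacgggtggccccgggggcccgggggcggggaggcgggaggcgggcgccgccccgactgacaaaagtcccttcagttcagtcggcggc
The Socs3 stretch held 1 match to TTCNNNGAA, the sequence TTCTTAGAA, at positions -154 to -146 from the start. The Pim1 stretch held a match to the looser motif only, TTGGCTGAA, and the stretches of Pim3 and Bcl3 held neither. Among all 32851 promoter windows of this length, 7.02% held TTCNNNGAA and 34.2% the looser motif. All 10 genes were matched in the table, with 12 starts in all. TTCNNNGAA was found at 1 of these 12 and the looser motif at 7, of which 2 were among the 5 starts of target genes and 4 among the 6 of receptors and kinases. A match describes the letters of the sequence and is no sign of binding.

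Setting the roles side by side, the targets' median change lay 0.555 log2 units below that of the receptors and kinases (-0.635 against -0.08). Recomputed for each of the 4 pairs of 1 control and 1 Zfp322a RNAi array, the difference ran from -0.64 to -0.47. It is a description and was not tested, since genes are not replicates. All 9 target probe sets were on one side of 0, whereas 9 receptor and kinase changes were negative and 6 positive. The groups' arrays did not overlap for 8 of 9 target probe sets, all with Zfp322a RNAi below. They did not for 7 of 15 receptor and kinase probe sets, 4 below and 3 above, where 57.5% of all probe sets had no overlap (32.4% below and 25.1% above). By the size rule in the study's methods (1.5-fold, with no test), 5 of the 28 probe sets passed (17.9% against 7.31% of all, 4.67% higher and 2.64% lower), namely both of Pim1, that of Bcl3, and 1416576_at and 1456212_x_at of Socs3. All 5 were lower, and no receptor, kinase or Stat3 probe set reached that size.

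Probe sets of the same gene did not always tell the same story, so the difference between them was taken on each array. Lifr 1454984_at lay 4.01 and 4.0 log2 units above 1450207_at in control RNAi and 4.42 and 4.48 above it in Zfp322a RNAi. The gap widened by 0.445, nearly the whole rise of the first. Stat3 1460700_at lay 0.73 and 0.66 below 1426587_a_at in control RNAi and 0.27 and 0.25 below it in Zfp322a RNAi. That gap narrowed by 0.435. The Il6st gap between 1452843_at and 1421239_at went from 3.62 and 3.58 to 3.12 and 3.21. The brighter Pim3 probe sets stayed 1.51 to 1.60 apart on all 4 arrays. Other pairs of target probe sets varied more, also within a group. The gap between Pim3 1437100_x_at and 1438956_x_at went from 4.64 and 5.09 to 4.45 and 4.75. That between Socs3 1455899_x_at and 1416576_at went from 2.31 and 1.98 to 2.44 and 2.31. The probe sequences were not used here, so which transcripts or ends each probe set reads was not analysed.

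**Figure D3:**
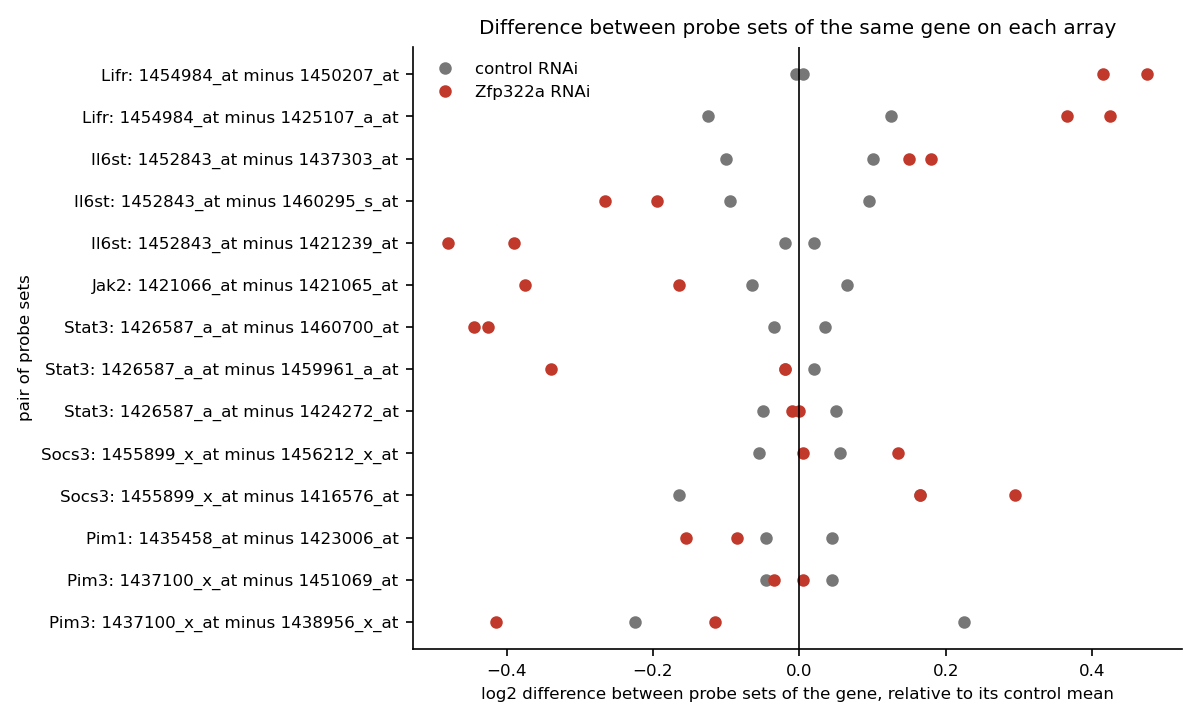
Difference in log2 value between the brightest probe set and each other one of a gene (rows, all members but Osmr, Jak1 and the single probe set of Bcl3), per array, with the control mean of each row set to 0 (x axis, log2 units). Grey points are control RNAi and red points Zfp322a RNAi; the red points stand away from 0 for Lifr, Il6st 1421239_at and Stat3 1460700_at and near it for the 2 brighter Pim3 probe sets.

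The calls of receptors and kinases depended on how a gene was summarised, and those of the targets did not. Averaging every probe set of a gene, Socs3 (-0.665 ± 0.06), Pim1 (-0.775 ± 0.08), Pim3 (-0.41 ± 0.07) and Bcl3 (-0.765 ± 0.07) passed, with adjusted p between 0.00145 and 0.00836 (limma over 18193 genes). Lifr (0.21 ± 0.07), Il6st (-0.22 ± 0.07), Jak2 (-0.22 ± 0.07), Stat3 (0.14 ± 0.06), Jak1 (-0.11 ± 0.08) and Osmr (0.085 ± 0.09) did not pass (adjusted p between 0.0582 and 0.550). With the brightest probe set of each gene instead, Lifr, Il6st, Jak2 and the 4 target genes passed (limma, adjusted p up to 0.0316), and Osmr, Jak1 and Stat3 did not. Without any 1 of the 4 arrays, 0 probe sets passed the adjusted p with limma, where 1 residual degree of freedom is left. At an unadjusted p under 0.05, 13 or 14 of the 28 passed there, beside 10572 to 11509 of all 45037, and each of the 13 called probe sets kept its direction.

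The other genes of the pathway went in both directions. Among ligands and further receptor chains, 10 of 13 genes had a probe set of their own. Of their 16 probe sets, 1 passed (6.25%, against 20.1% of all probe sets). That was 1421207_at of Lif, the ligand gene itself, which read 6.28 and 6.00 in control RNAi and 6.64 and 6.63 in Zfp322a RNAi (0.495 ± 0.11, adjusted p = 0.0260 with limma). A dimmer probe set of Lif did not pass (-0.025 ± 0.08). Of 12 probe sets of other JAKs and STATs, 1 passed (8.33%, also below the 20.1% of all probe sets). It was 1421469_a_at of Stat5a, a transcription factor of prolactin and other cytokine signals, with 6.57 and 6.69 against 6.17 and 5.92 (-0.585 ± 0.11, adjusted p = 0.0148 with limma).

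Negative regulators other than Socs3 were called higher more often than lower, at 10 against 1 of 41 probe sets. These were 24.4% and 2.44%, against 10.6% and 9.47% of all probe sets. Socs3, itself a negative regulator and lower on all 3 of its probe sets, was counted among the targets and is not in these shares. Ptpn2 alone gave 4 of the 10 higher calls. Ptpn2, whose phosphatase acts on JAK and STAT proteins, rose on all 4 of its probe sets. The brightest, 1438562_a_at, read 11.29 and 11.25 in control RNAi and 11.63 and 11.58 in Zfp322a RNAi (0.335 ± 0.08), and the dimmest, 1425198_at, read 4.37 and 4.43 against 5.60 and 5.16 (0.98 ± 0.15). Their adjusted p lay between 0.00753 and 0.0290 with limma. Socs4, of the same protein family as Socs3, rose on 1455142_at (0.585 ± 0.10) and 1421274_at (0.66 ± 0.14) and not on its other 2. Of these, 1421274_at was very dim, at 3.29 and 3.00 in control RNAi, where 1.38% of all probe sets were dimmer. Socs2, another member of that family, rose on 1 of 6 probe sets (1438470_at, 0.535 ± 0.08), while its brightest, 1449109_at, did not pass (-0.085 ± 0.08). Ptpn6, whose phosphatase damps cytokine receptors in blood cells, fell on 1460188_at (-0.485 ± 0.08, adjusted p = 0.0111 with limma). Its slightly brighter probe set, 1456694_x_at, overlapped between the groups and did not pass (-0.195 ± 0.11). Socs3 went down, and 4 other family members had at least 1 probe set called higher. They were Socs2, Socs4, Socs5 and Socs6, the last pair singled out after their values were seen. Each of these 4 also had at least 1 probe set that did not pass. The 10.6% of all probe sets called higher is a share per probe set. It cannot be set against a count of genes that have several. No probe set of Socs1, Socs7 or Cish passed (-0.215 ± 0.08 for Cish). These belong to the same family and were also singled out afterwards.

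The receptor also feeds the ERK and PI3K pathways, and 29 probe sets of 8 such genes gave 4 higher and 3 lower calls, close to the share of all probe sets (13.8% and 10.3%, against 10.6% and 9.47%). The docking protein gene Gab1 rose on 1448814_at (0.69 ± 0.08, adjusted p = 0.00369 with limma), but its brighter probe sets did not pass (-0.045 ± 0.08 and -0.025 ± 0.08). Pik3ca, the catalytic subunit of PI3K, rose on 1423144_at (0.515 ± 0.08) and Pik3r1, its regulatory partner, on 1425515_at (0.475 ± 0.08). These were 1 of 6 and 1 of 4 probe sets, and the brightest of each did not pass (0.10 ± 0.09 on 1453134_at and 0.16 ± 0.08 on 1438682_at). Sos1, an activator of RAS, was called in both directions, higher on 1434389_at (0.42 ± 0.08) and lower on the dim 1421886_at (-0.65 ± 0.11).

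Further genes reported as STAT3 targets in mES or other cells went both ways. Of their 35 probe sets, 7 were higher and 8 lower (20.0% and 22.9%, against 10.6% and 9.47% of all probe sets), 20 did not pass, and the median change was -0.11. The naive-state gene Pramel7 went from 7.68 and 7.60 to 8.99 and 8.93 on 1439810_s_at (1.32 ± 0.08, adjusted p = 0.00105 with limma). Cebpb, a leucine zipper factor of the acute-phase response, went from 7.88 and 7.88 to 8.94 and 8.88 on 1418901_at (1.03 ± 0.08, adjusted p = 0.00146 with limma). Myc rose from 7.20 and 7.00 to 8.25 and 8.19 (1.12 ± 0.10), and the early response gene Ier3 fell from 8.21 and 8.22 to 7.22 and 7.13 (-1.04 ± 0.08). Among genes singled out after their values were seen, the self-renewal factors Klf5 and Tfcp2l1 fell on their brightest probe sets (-0.72 ± 0.08 and -0.875 ± 0.08). Klf4, a further one, fell on 1417395_at (-0.45 ± 0.08) and did not pass on the brighter 1417394_at (-0.055 ± 0.08). Gbx2, also singled out afterwards, went the other way without passing (0.33 ± 0.09, adjusted p = 0.0525 with limma). It read 7.17 and 7.32 in control RNAi and 7.63 and 7.52 in Zfp322a RNAi. Pim2, the remaining gene of the Pim family and also singled out afterwards, read 7.05 and 7.11 in control RNAi and 7.06 and 7.10 in Zfp322a RNAi.

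**Figure D4:**
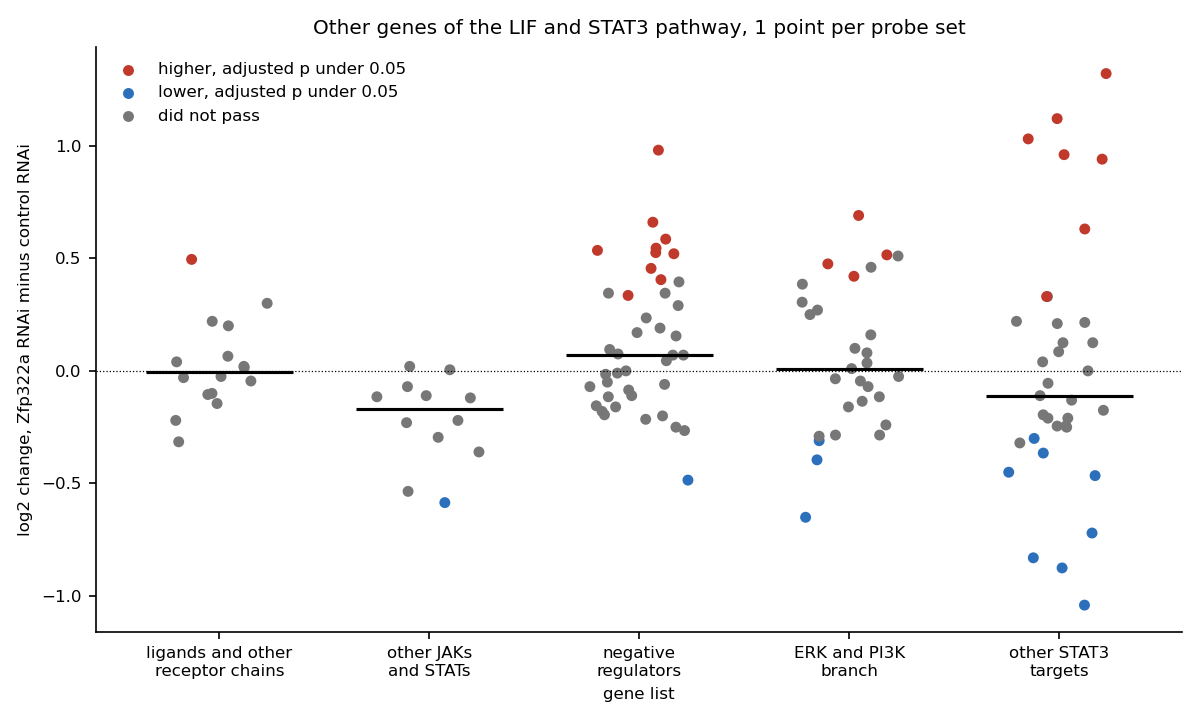
Log2 change, Zfp322a RNAi minus control RNAi (y axis), of every probe set of 5 lists of other pathway genes (x axis), with a black line at each list's median. Red and blue points passed an adjusted p of 0.05 as higher and lower. Negative regulators, a list without Socs3, show 10 red and 1 blue point. Other STAT3 targets show 7 red and 8 blue, from 1.32 to -1.04.

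The probe sets nearest to the brightest ones of Lifr and Pim1 were sought by Euclidean distance over the 4 arrays, after the mean of each probe set was subtracted. For Lifr these were Eif1a, Wdr70 and Lrig2, at 0.0166 to 0.0224 log2 units. For Pim1 they were Plekhh1, Egln1 and Anp32a, at 0.026 to 0.0357. With 4 arrays in 2 groups, the distance mainly compares the size of the change.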

How the data were processed

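Each of the 4 RNA samples was measured on 1 Affymetrix MG430 2.0 array. The authors deposited log2 values after RMA, which subtracts background, makes the quantiles of arrays alike and summarises each probe set (version not given in the sources used here), so that a shift of all genes would not show. Values were used as deposited (2.62 to 14.61), with no filter, and the array medians were 6.07 to 6.11. The log2 scale was read from this range. Groups came from sample titles. Names of probe sets were taken from the annotation of the platform, with symbols updated through Entrez IDs in the RefSeq table of GRCm38.p6. 34945 probe sets had 1 symbol, 932 several and 9160 none, and only the first were named. No build is given for the arrays.

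All 45037 probe sets were fitted with limma 3.58.1 in R 4.3.3 (lmFit, eBayes, group as the only term, 2 residual degrees of freedom, two-sided, Benjamini-Hochberg). The number of arrays limits the precision (median SE 0.0888), and an exact permutation test of 2 arrays against 2 cannot go below p = 0.333. Nothing says that the samples of a group were separate cultures, so each p-value reflects only how these samples vary, which may be technical. The fit was tried on simulated data with independent noise and few changed probe sets. That setting is unlike these data, so it does not bear on error rates here. The members, lists and tests were chosen with earlier results of these data known. Named are all members, of each list the called genes with the lowest p (at most 4) and genes called in both directions, and the 3 genes nearest to Lifr and to Pim1. Other genes named are said to have been singled out. Levels of different genes were not tested against each other. Alternatives were array centring, repeated quantile normalization, a filter on dim probe sets, a variance trend, other sets of probe sets, 1 value per gene, a replicate block, the 1.5-fold rule and leaving out each array.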

Additional observations from a re-analysis of the deposited data

How the results depend on the processing

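Of the 13 called member probe sets, each kept its call with dim probe sets left out, with a variance trend and with single-symbol probe sets only. With arrays centred or quantile normalization repeated 12 did, Jak2 1421066_at being the exception. Without _x_at and _s_at probe sets, the 10 that remained kept theirs. With the replicate block 0 of all 45037 probe sets passed (lowest adjusted p of a member 0.0513 with limma); 13586 of all and 14 of the 28 members had an unadjusted p under 0.05. The samples share only a number (correlation of same-numbered deviations 0.0561).

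The 13 member calls became 7 with the brightest probe set per gene, 4 with the mean over probe sets, 5 under the 1.5-fold rule, 0 with the replicate block and 0 to 0 without any 1 array. The 8 lower calls of targets became 5 without _x_at and _s_at probe sets, 4 with either value per gene, 5 under the 1.5-fold rule, 0 with the replicate block and 0 to 0 without any 1 array. The 3 lower and 1 higher calls of receptors and kinases both became 0 with the mean over probe sets, the replicate block, the 1.5-fold rule or without any 1 array (0 to 0). In the lists of other genes, the 22 higher calls became 11 with the brightest and 13 with the mean over probe sets and 10 under the 1.5-fold rule. Their 13 lower calls became 22 without dim probe sets, 21 with a variance trend and 6 under the 1.5-fold rule. Both were 0 with the replicate block and 0 to 0 without any 1 array. The role difference was -0.70 without _x_at and _s_at probe sets, -0.475 with the brightest probe set per gene and -0.635 to -0.46 without any 1 array. The Zfp322a changes with the replicate block, -1.465 and -1.87, missed the threshold (adjusted p = 0.0523 and 0.0513 with limma), and ran from -1.665 to -1.265 and from -1.965 to -1.775 without any 1 array.

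Among probe sets that were not called, the sign turned for Stat3 1426587_a_at with arrays centred (0.015) and for Stat3 1424272_at with arrays centred (0.02) or quantile normalization repeated (0.0175). Without 1 array it also turned for Lifr 1450207_at (-0.01 to 0.10), Il6st 1460295_s_at (-0.245 to 0.015), Osmr 1418675_at (-0.38 to 0.07) and 1459217_at (-0.105 to 0.235), Jak1 1433804_at (-0.19 to 0.03) and 1433803_at (-0.105 to 0.005), Jak2 1421065_at (-0.175 to 0.005), and Stat3 1426587_a_at (-0.04 to 0.01) and 1424272_at (-0.04 to 0.02).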
